A study of Mus musculus with 6 samples.

Results

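The genes described here are 37 genes of B and T lymphocytes, chosen by name as genes of these lineages, with no threshold on measured values. The choice was made with earlier results of these data known. Of these, 33 had a probe set annotated to them alone, out of 12394 genes measured in all: all 13 B cell genes, 16 of 20 T cell genes and 4 genes used by both lineages. Lck, Tcf7, Skap1 and Trbc1 were not analysed here. Each gene is represented by its probe set with the highest mean over the arrays. The study measured RNA of subcutaneous white fat, labelled IWAT and read here as inguinal, on Affymetrix arrays. The YY1bKO mice (YY1flox/flox; Ucp1Cre) had Yy1, the gene of the transcription factor YY1, flanked by loxP sites on both alleles, and expressed Cre recombinase under Ucp1 sequences. Cre from this driver acts mainly in thermogenic adipocytes, so lymphocytes are not its stated target. The controls carried the floxed alleles without Cre (YY1flox/flox), and no group with Cre alone is labelled. Both groups were of mixed C57BL6 and 129 background, aged 8 weeks, with 2 weeks of high fat feeding, and each had 3 arrays. Nothing in the labels says that the arrays came from separate animals, so a p-value reflects the spread between arrays, which may be technical, and the number of arrays limits precision. Neither a scan date nor a batch is given in the sources used here.

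Lymphocytes are not the main cells of fat, but the inguinal fat pad of the mouse surrounds a lymph node. In a lymph node, B cells gather in follicles around follicular dendritic cells, T cells fill the zone beside them, and both enter through high endothelial venules. B cells recognise antigen with a surface immunoglobulin that signals through CD79A and CD79B, and T cells with a receptor that signals through the CD3 chains.

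The array medians lay between 123.15 and 130.35 intensity units, and Spearman correlations between arrays ran from 0.946 to 0.993. The tissue label was met by Adipoq, the adipocyte hormone adiponectin, with an intensity from 15948.4 to 20044.7 on the 6 arrays. Yy1 had log2(intensity + 1) values of 10.13, 10.41 and 10.20 in YY1bKO arrays 1, 2 and 3, against 10.33, 10.52 and 10.62 in control arrays 1, 2 and 3, and the groups overlapped (log2 difference -0.24, limma adjusted p = 0.574). Other arrays stood apart in other tissues' genes. The mean of 12 skin and mammary epithelium genes, each centred on its own mean, was 2.82 in control replicate 2 and at most -0.11 in the other 5 arrays. The mean of 11 skeletal muscle genes was 2.33 in YY1bKO replicate 1 and at most -0.16 elsewhere. Acta1 of that list differed from this mean, with 1569.2, 524.3 and 1572.0 in YY1bKO, against 312.7, 181.0 and 297.7 in controls. Its log2 difference was 2.08 (limma adjusted p = 0.251).

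Promoters are shown for the B cell members Cd22 and Spib, picked because they held the motif marked below. The sequences come from RefSeq (GRCm38.p6), whose table held 25 of the 37 genes. Of the 9 B cell genes held there, 2 had the motif, and these are the pair shown. Capitals mark CCCNNGGG, the core motif of the early B cell factor EBF1, which reads the same on both strands. Cd22, an inhibitory receptor of B cells (chr7:30879029-30879278, minus strand), has a match that begins 48 bases before an annotated start. The gene spans chr7:30865404-30880342, so this window lies inside it and the start is an internal one. Spib, an ETS family transcription factor of B cells (chr7:44532072-44532321, minus strand), has 2 overlapping matches, the first at 65 bases before the start. Each line gives the 250 bases before the start.
Cd22: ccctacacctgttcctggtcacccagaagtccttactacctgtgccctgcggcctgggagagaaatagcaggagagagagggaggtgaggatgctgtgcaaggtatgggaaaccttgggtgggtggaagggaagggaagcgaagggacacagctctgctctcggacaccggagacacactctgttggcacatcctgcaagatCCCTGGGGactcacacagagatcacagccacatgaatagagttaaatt
Spib: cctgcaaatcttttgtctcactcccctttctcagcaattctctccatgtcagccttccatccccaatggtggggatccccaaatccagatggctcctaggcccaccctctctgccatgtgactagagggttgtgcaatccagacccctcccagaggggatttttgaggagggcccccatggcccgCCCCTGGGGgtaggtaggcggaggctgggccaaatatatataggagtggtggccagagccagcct
In windows of 300 bases around the start, the motif stood in 5 of 39 member promoters (12.8%). These were promoters of Cd22, Spib, Zap70, Cd27 and Coro1a. The windows of Cd22, Zap70 and Coro1a lay wholly inside the gene, at internal starts. It stood in 4491 of all 32851 promoters (13.7%), so the share of the members was near that of the genome. The octamer ATGCAAAT, read by the OCT2 and OCT1 factors with the coactivator encoded by Pou2af1, stood on either strand in 0 of the 39 and in 1.74% of all. These counts describe letters in these windows and say nothing on the binding of either factor.

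The lymphocyte genes differed by large amounts between arrays, and that spread did not follow genotype. The mean of the 33 centred values on the log2 scale was -1.72, 0.93 and -0.01 in YY1bKO replicates 1, 2 and 3, against -1.52, 0.68 and 1.64 in control replicates 1, 2 and 3. From high to low the arrays stood as control 3, YY1bKO 2, control 2, YY1bKO 3, control 1 and YY1bKO 1, so the genotypes alternated along the whole order. Gene by gene, most members came close to this order. Control replicate 3 was highest in 30 of the 33 genes and in 23.2% of all genes measured. YY1bKO replicate 2 held place 2 in 30 genes (ties included), control replicate 2 held place 3 in 28, and YY1bKO replicate 3 held place 4 in 29. The lowest array was YY1bKO replicate 1 in 19 genes and control replicate 1 in 13, and either of these in 31.0% of all genes. The exact order of all 6 arrays was held by 14 of the 33 members, and by 214 of the 12361 other genes (1.73%); since the order came from the members, their count is a description. In bulk tissue, fewer cells of a type and less RNA per cell cannot be told apart.

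**Figure D1:**
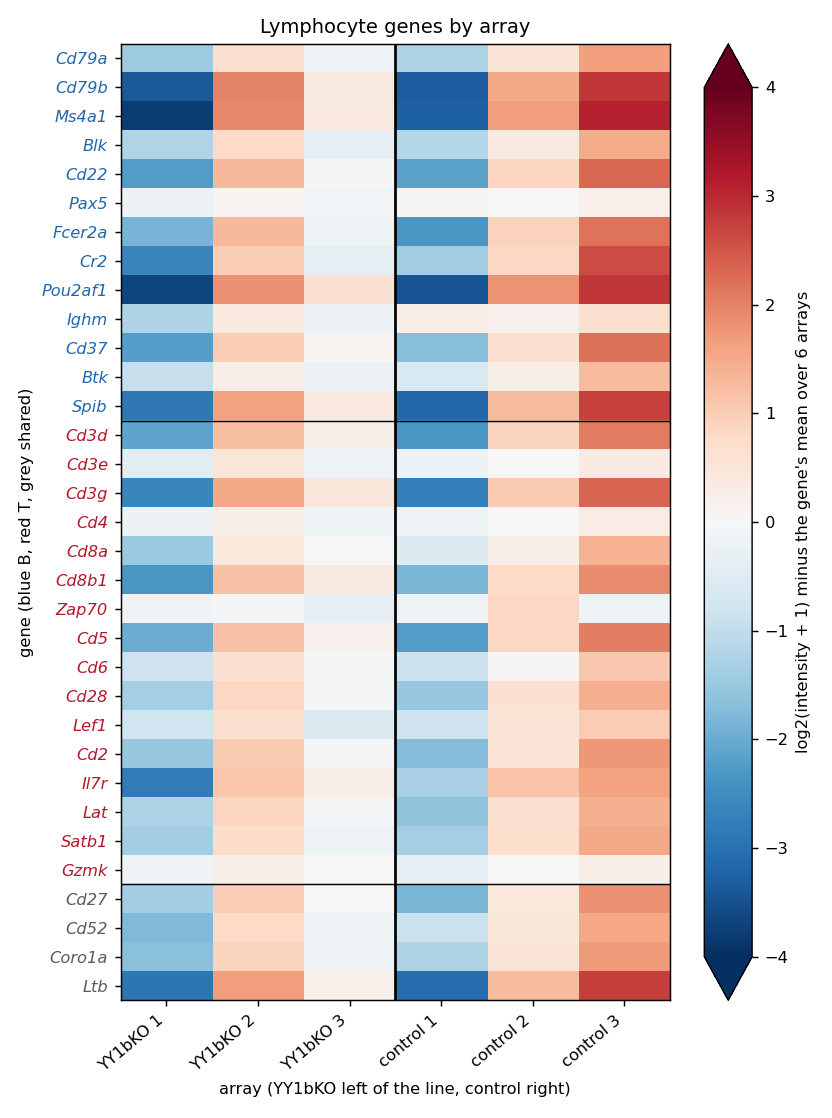
Each row is a lymphocyte gene and each column an array, with colour for log2(intensity + 1) minus the gene's own mean over the 6 arrays. YY1bKO replicate 1 and control replicate 1 are blue in most rows, and YY1bKO replicate 2, control replicate 2 and control replicate 3 are red in most, with control replicate 3 highest in 30 of 33 genes.

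Among B cell genes, the receptor and surface genes showed the pattern at full size. Ms4a1, which encodes CD20, had intensities of 28.6, 1549.1 and 531.8 in YY1bKO replicates 1 to 3, against 41.1, 1285.2 and 3479.1 in control replicates 1 to 3. Cd79b, a signalling chain of the B cell receptor, had 24.1, 1011.6 and 327.8 in YY1bKO, against 24.5, 741.2 and 1879.1 in controls. In both genes replicate 1 of each genotype was lowest, and the groups overlapped. Cd79b lay below the lower quartile of the array in both of these (30.2 in YY1bKO replicate 1 and 31.7 in control replicate 1), and Ms4a1 in YY1bKO replicate 1. The highest array exceeded the lowest 122-fold in Ms4a1 and 78.0-fold in Cd79b, sizes that rest on a denominator near the floor. Cd79a, the other signalling chain, ran over a smaller span, with 36.0, 158.5 and 84.7 in YY1bKO, against 41.4, 140.5 and 310.6 in controls. Cd22 had 89.1, 1036.0 and 406.0 in YY1bKO, against 95.7, 761.9 and 2085.7 in controls. Cr2, complement receptor 2 of B cells and follicular dendritic cells, had 17.6, 226.9 and 87.3 in YY1bKO, against 42.7, 201.7 and 698.7 in controls. Each of these 5 genes put the 6 arrays in the same order.

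The genes of B cell regulators varied likewise, with an exception in Pax5. Pou2af1, the coactivator of octamer factors, had 8.8, 439.3 and 186.0 in YY1bKO, against 10.4, 430.1 and 905.9 in controls. Spib had 25.8, 595.7 and 254.0 in YY1bKO, against 21.3, 466.7 and 1283.2 in controls. Pax5, the factor that fixes B cell identity, stayed between 17.6 and 24.3 and below the lower quartile on all 6 arrays, so its level was near the floor of the array. Fcer2a, the low affinity IgE receptor, ran from 54.0 to 1230.7. Cd37, a tetraspanin, and the kinase genes Blk and Btk spanned 21.6-fold, 6.53-fold and 4.66-fold between the highest and lowest array.

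Ighm, the heavy chain of IgM, departed from the other B cell genes in control replicate 1 by its brightest probe set. This had 2645.6, 8152.5 and 5247.9 in YY1bKO, against 7559.4, 7027.9 and 9711.3 in controls. Control replicate 1, where Ms4a1 was at 41.1, thus held more signal of that probe set than control replicate 2, where Ms4a1 was at 1285.2. The 11 probe sets annotated to Ighm did not give 1 picture. Of the 7 that ranged over more than 1 log2 unit, 2 were higher in control replicate 1 than in control replicate 2, the one above and a second bright one with log2 values of 10.36, 11.83 and 11.32 in YY1bKO and 11.77, 11.56 and 12.24 in controls. In the other 5, all dimmer, control replicate 1 was among the lowest 2 arrays, as in most B cell genes; the brightest of them had 7.27, 8.15 and 8.15 in YY1bKO, against 7.32, 8.13 and 8.64 in controls. Probe sets for immunoglobulin genes can share sequence with other heavy chains, so the identity of this signal is uncertain. The log2 differences of the 11 between the groups ran from -0.73 to 0.23.

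The mean of the T cell genes, given below, put the arrays in the same order, but 4 of the 16 genes held that order exactly, and 9 of the 16 were lowest in control replicate 1 and 6 in YY1bKO replicate 1. Cd3d and Cd3g encode signalling chains of the T cell receptor complex. Cd3d had 71.9, 718.5 and 367.0 in YY1bKO, against 61.5, 584.7 and 1333.7 in controls. Cd3g had 24.6, 449.7 and 216.4 in YY1bKO, against 22.6, 323.1 and 790.4 in controls. In both, control replicate 1 was lowest and YY1bKO replicate 1 next, and the groups overlapped. Cd3e, the remaining CD3 chain among the members, had 143.5, 272.4 and 172.2 in YY1bKO, against 167.3, 198.1 and 247.3 in controls. It differed little, was highest in YY1bKO replicate 2 and rests on 1 probe set, whose response was not tested. Cd8b1, a chain of the coreceptor of cytotoxic T cells, had 36.5, 418.8 and 237.3 in YY1bKO, against 51.5, 314.8 and 698.4 in controls. Its partner Cd8a spanned 7.55-fold between the highest and lowest array. Cd4, the helper coreceptor, spanned 1.46-fold. Its dimmer probe set ranged over 0.38 log2 units, and the response of either was not tested.

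Other T cell genes fell between these extremes. Il7r, the interleukin 7 receptor of resting T cells, had 65.8, 1000.0 and 550.4 in YY1bKO, against 190.1, 1016.0 and 1422.5 in controls. Cd5 and Cd2, surface receptors of T cells, spanned 20.4-fold and 11.3-fold. Lat, the adaptor of T cell receptor signalling, Cd28, the costimulatory receptor, and Satb1, a chromatin organiser, spanned 8.32-fold, 8.17-fold and 7.67-fold. Cd6 and Lef1 spanned 3.93-fold and 3.78-fold, and Lef1 lay below the lower quartile on 3 arrays. Gzmk, a granzyme, spanned 1.52-fold, with YY1bKO replicate 2 and control replicate 3 tied as its highest arrays. For Zap70, the kinase that binds the CD3 chains, the brighter probe set was highest in control replicate 2 (1065.9, and 471.6 to 581.1 elsewhere), the array with the highest epithelium mean. The dimmer Zap70 probe set had log2 values of 5.58, 6.81 and 6.45 in YY1bKO, against 5.60, 6.60 and 7.56 in controls, highest in control replicate 3. Whether the epithelial content bears on the brighter one was not tested.

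The 4 genes of both lineages followed the B and T genes. Ltb, lymphotoxin beta, which is needed to form lymph nodes, had 75.3, 1799.2 and 645.9 in YY1bKO, against 67.5, 1337.8 and 3835.9 in controls. Coro1a, an actin regulator of leukocytes, had 389.3, 2299.1 and 1086.9 in YY1bKO, against 535.4, 1809.4 and 4086.9 in controls. Cd52, a small surface glycoprotein, and Cd27, a costimulatory receptor of the TNF receptor family, spanned 9.87-fold and 13.4-fold. In all 4 the highest array was control replicate 3, and replicate 1 of each genotype lay below the other arrays.

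The spread of these genes was among the larger ones on the array. The range between the highest and lowest array, on the log2 scale, had a median of 3.39 over the 33 members and 0.50 over all 12394 genes. Of the 100 genes with the widest range, 12 were members, from Ms4a1 (6.88, in place 14) to Cd37 (4.40, in place 92). Of the 500 widest, 25 were members. Since the members were chosen with earlier results of these data known, these counts are a description. The 100 widest were highest in control replicate 2 in 69 cases and in control replicate 3 in 26. The members with the narrowest ranges were Pax5 (0.44), Cd4 (0.54) and Gzmk (0.59).

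**Figure D2:**
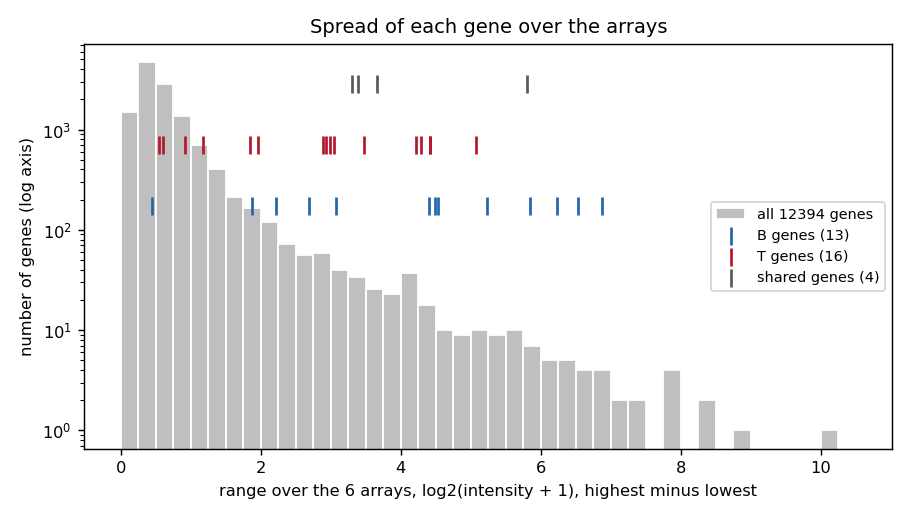
The histogram counts all 12394 genes by their range over the 6 arrays on the log2 scale, with a log count axis, and the ticks mark the 13 B, 16 T and 4 shared lymphocyte genes at fixed heights. Most genes lie below 1, whereas 29 of the 33 lymphocyte genes lie above 1 and Ms4a1 reaches 6.88.

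On the log2 scale, the mean of the B cell genes ranged further between arrays than that of the T cell genes. The T mean includes the narrow ranges of Cd3e (0.92), Cd4 (0.54) and Gzmk (0.59), and the B mean that of Pax5 (0.44). The mean of the 13 centred B genes was -2.12, 1.09 and 0.00 in YY1bKO, against -1.80, 0.83 and 2.01 in controls, a range of 4.13. The mean of the 16 T genes was -1.34, 0.77 and -0.02 in YY1bKO, against -1.24, 0.55 and 1.27 in controls, a range of 2.61. Both means put the arrays in the same order. The log2 span of a gene also depends on the background of its probe set, so the genes were placed on the linear scale between YY1bKO replicate 1, set to 0%, and control replicate 3, set to 100%. This placing was chosen after the data were seen and used the 28 members more than 1 log2 unit apart in these arrays. It gives every gene the same span, so it cannot show which lineage moved further, only where the other arrays fell. In YY1bKO replicate 2 the 12 B genes had a median place of 46.4% (30.7% to 77.9%) and the 12 T genes one of 57.9% (43.6% to 68.9%). In YY1bKO replicate 3 the medians were 16.9% for B genes (10.2% to 36.8%) and 24.3% for T genes (6.03% to 35.7%). In control replicate 2 they were 35.9% for B genes (27.0% to 62.0%) and 41.3% for T genes (30.4% to 70.0%), and in control replicate 1 they were 0.592% and -0.663%. The B median thus lay below the T median in YY1bKO 2, YY1bKO 3 and control 2, while the genes of the lineages overlapped in each. Ighm, at 69.5% in control replicate 1, was the B gene farthest from the others. The difference between the lineages is a description, since genes are not replicates.

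**Figure D3:**
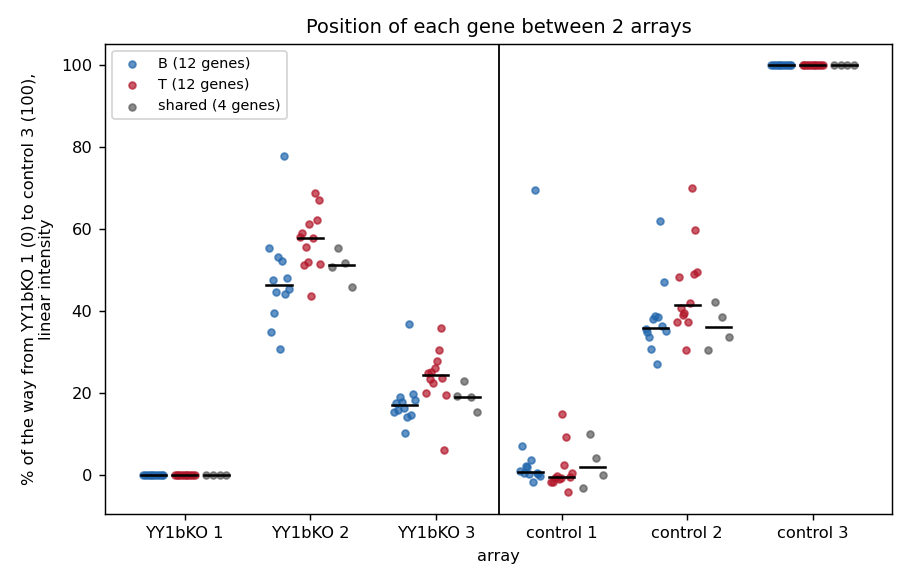
Each point is a lymphocyte gene, placed by its linear intensity between YY1bKO replicate 1 (0%) and control replicate 3 (100%), with black bars for the median of the 12 B, 12 T and 4 shared genes in each array. YY1bKO replicate 2 has medians of 46.4% for B and 57.9% for T genes, and control replicate 1 lies near 0% apart from Ighm at 69.5%.

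No lymphocyte gene differed between the genotypes beyond the spread of its arrays. By limma, 0 of the 33 members passed an adjusted p of 0.05, where 0.0323% of all genes did, and 0 passed an unadjusted p of 0.05, where 8.45% of all genes were higher and 1.99% lower. The groups of arrays overlapped in all 33, whereas they did not overlap in 16.5% of all genes. The estimates themselves were below 0 in 32 of the 33, with Gzmk (0.07) above, and the median log2 difference (YY1bKO minus control) was -0.67 over the B genes, -0.39 over the T genes and 0.00 over all genes. Since the members vary together across the arrays, their signs are not separate observations. The interval of each difference was wide: Ms4a1 had -0.98 (95% confidence interval -6.06 to 4.09, limma adjusted p = 0.904), Cd79b -0.70 (-5.54 to 4.15, 0.933), Cd3d -0.45 (-3.69 to 2.80, 0.936) and Cr2 -1.35 (-4.44 to 1.74, 0.768). The narrowest interval among members with a range over 1 was that of Zap70 (-1.04 to 0.37). The residual SD between arrays of a genotype had a median of 1.38 over the members, 1.92 over the B genes and 1.32 over the T genes, against 0.17 over all genes. Differences within these intervals are not excluded by 3 arrays a group.

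The sign of the medians changed when control replicate 3 or YY1bKO replicate 1 was left out, and not with any other array. Without control replicate 3 the median log2 difference was 0.15 over the B genes and 0.24 over the T genes, and 24 of the 33 members were higher in YY1bKO. Without YY1bKO replicate 1, which also had the highest muscle mean, the medians were 0.14 and 0.19, and 21 members were higher. Without control replicate 1 the medians were -1.81 and -1.21, and without YY1bKO replicate 2 they were -1.44 and -0.96. Without control replicate 2 they were -0.42 and -0.14, and without YY1bKO replicate 3 both also stayed negative. In each of the fits that left out an array, 0 members passed an adjusted p of 0.05 by limma.

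**Figure D4:**
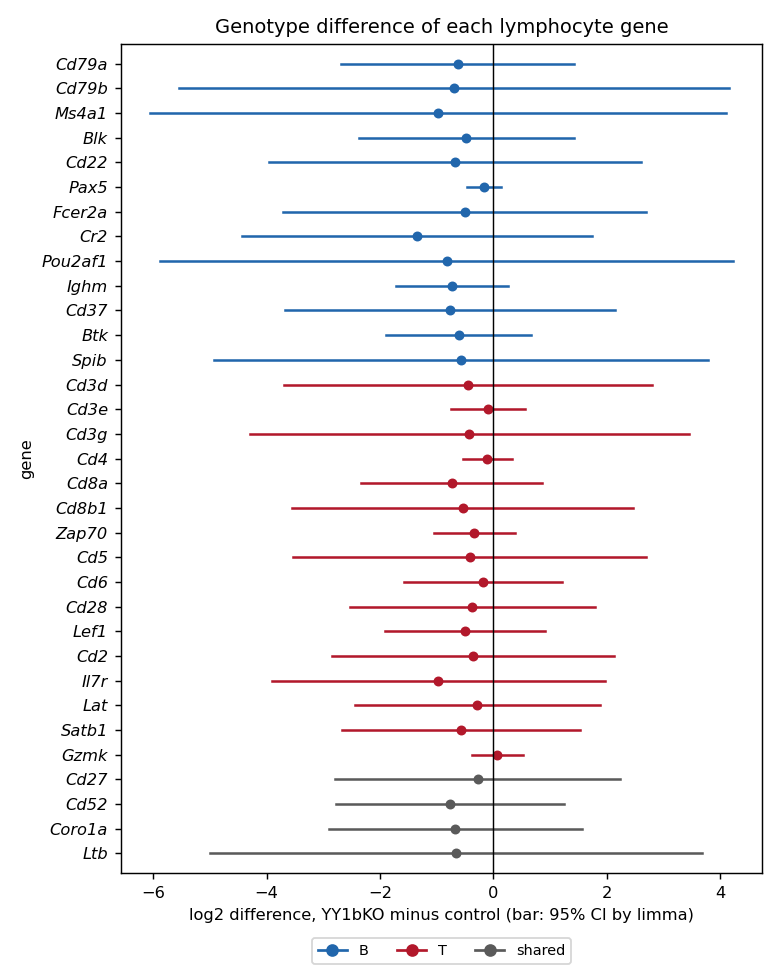
Points give the log2 difference of each lymphocyte gene, YY1bKO minus control, and bars its 95% confidence interval by limma over 3 arrays per group. All 33 intervals cross 0, the widest being that of Ms4a1 (-6.06 to 4.09), and 32 of the points lie below 0.

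Most further B and T cell genes, listed apart from the members, were also highest in control replicate 3. These lists too were chosen with earlier results of these data known. Of 16 other B cell genes, 14 were highest in control replicate 3 and all 16 lowest in replicate 1 of either genotype. Their mean was -1.52, 0.73 and -0.21 in YY1bKO, against -1.31, 0.67 and 1.64 in controls. Cxcr5, the receptor that guides B cells into follicles, had 15.6, 153.3 and 68.9 in YY1bKO, against 13.9, 139.0 and 345.4 in controls. The exceptions to control replicate 3 were Ly6d and Fcgr2b, genes also used by epithelium and by myeloid cells. Of 17 other T cell genes, 14 were highest in control replicate 3, among them Ccr7, which guides T cells into lymph nodes, with 28.9, 312.6 and 167.8 in YY1bKO, against 33.1, 248.2 and 483.3 in controls. No gene of either list passed an unadjusted p of 0.05 by limma, where 10.4% of all genes did.

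Genes of lymph node stroma were checked because the list was labelled as lymph node content. Cxcl13, the follicle chemokine made by follicular stroma, had 177.9, 1734.4 and 746.2 in YY1bKO, against 76.4, 1222.5 and 2993.0 in controls. Glycam1, a sulphated ligand of high endothelial venules that mammary epithelium also makes, had 21.5, 859.5 and 423.4 in YY1bKO, against 28.8, 320.4 and 996.1 in controls. Clu, abundant in follicular dendritic cells, had 702.9, 3497.5 and 1790.8 in YY1bKO, against 636.6, 3693.3 and 5896.5 in controls. The linear scale used above was applied to 7 of the 14 measured genes of the list. These were more than 1 log2 unit higher in control replicate 3 than in YY1bKO replicate 1. That filter fixed their rise between these arrays and left the other genes out. Only the places of the remaining arrays are described, for the genes kept. In YY1bKO replicate 2 the median of the 7 was 57.1%, from 28.9% for Tnfsf11, the cytokine RANKL, to 86.0% for Glycam1. The B and T medians there were 46.4% and 57.9%. In control replicate 2 they stood at 15.0% (Il7), 20.3% (Tnfsf11), 23.2% (Icam1), 25.6% (Vcam1), 30.7% (Glycam1), 37.1% (Cxcl13) and 57.6% (Clu). Beside these, the B and T medians were 35.9% and 41.3%. YY1bKO replicate 3 had values from 7.91% for Tnfsf11 to 41.2% for Glycam1, beside 16.9% and 24.3%. In control replicate 1 Il7 stood at 48.8%, and the others from -3.99% for Vcam1 to 7.62% for Icam1. Of the 14 measured genes of this list 10 were highest in control replicate 3. Lyve1, a receptor of lymphatic endothelium and some macrophages, was highest in YY1bKO replicate 3, with 1102.1, 1547.5 and 1608.9 in YY1bKO, against 888.7, 831.2 and 1169.9 in controls (log2 difference 0.56, limma adjusted p = 0.430). Ltbr, the lymphotoxin beta receptor, was lowest in control replicate 3, with 539.6, 440.6 and 503.7 in YY1bKO, against 584.0, 463.5 and 347.3 in controls. Prox1, a factor of lymphatic endothelium, lay below the lower quartile on all 6 arrays. Madcam1, a venule addressin, spanned only 27.0 to 60.9, and Chst4, a sulphotransferase of the same venules, lay below the lower quartile on all 6 arrays. Whether lymph node tissue was in the samples was not tested.

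Markers of other cells separated from this pattern to varying degrees. The 13 macrophage genes had means of -0.02, 0.10 and 0.11 in YY1bKO, against 0.29, -0.52 and 0.05 in controls, and 2 of the 13 were highest in control replicate 3. The 7 measured dendritic cell genes had means of -0.42, 0.16 and -0.08 in YY1bKO, against -0.09, -0.12 and 0.55 in controls, and 5 of the 7 were highest in control replicate 3. The 11 measured white adipocyte genes had means of 0.39, 0.08 and 0.26 in YY1bKO, against -0.00472, -0.41 and -0.32 in controls. Of these 11, 0 passed an adjusted p of 0.05 by limma, where 0.0323% of all genes did. At an unadjusted p of 0.05 by limma, 5 were higher in YY1bKO, where 8.45% of all genes were. Control replicate 3 was highest in 0 of the 11. Natural killer genes had means from -0.41 to 0.62, with 6 of 9 highest in control replicate 3, though Ncr1, their defining receptor, lay below the lower quartile on all 6 arrays. The 7 plasma cell genes had means of -0.64, 0.16 and 0.06 in YY1bKO, against -0.74, 0.62 and 0.54 in controls, and 3 of the 7 were highest in control replicate 3. Of these, Jchain, which joins IgM and IgA units, had 153.6, 1795.3 and 707.8 in YY1bKO, against 125.4, 1024.7 and 2662.5 in controls. Tnfrsf17, the plasma cell receptor BCMA, stayed between 40.6 and 52.9. Sdc1, a proteoglycan that epithelium also makes, and Prdm1, the plasma cell factor BLIMP1, were highest in control replicate 2, at 1370.4 and 204.4. Irf4, a factor of plasma cell formation, was highest in YY1bKO replicate 3. Xbp1, a factor of plasma cell secretion, was highest about equally in YY1bKO replicate 3 (4153.6) and control replicate 2 (4153.5). The germinal centre list ranged over 0.53 in its mean, and Mybl1 of that list lay below the lower quartile throughout. Of the thymocyte genes, Rag1 and Rag2, the recombinase of immature lymphocytes, lay below the lower quartile on all 6 arrays, and the list mean ranged over 0.33.

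**Figure D5:**
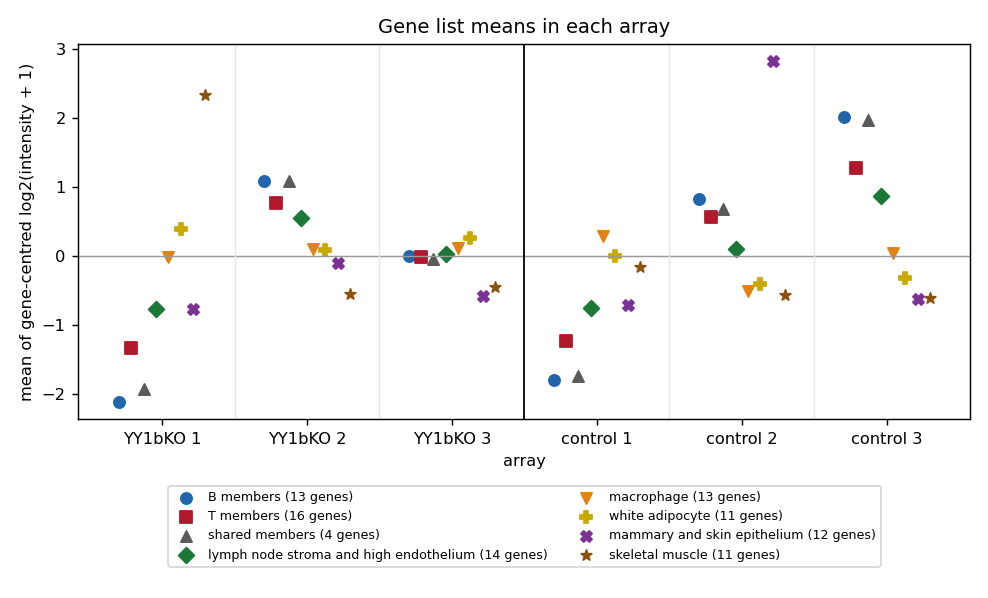
Points give the mean of gene-centred log2(intensity + 1) over each list in each of the 3 YY1bKO and 3 control arrays. The B, T, shared and lymph node stroma means move together from array to array, the macrophage mean stays between -0.52 and 0.29, the muscle mean stands out in YY1bKO replicate 1 (2.33) and the epithelium mean in control replicate 2 (2.82).

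Among genes outside the list that put the 6 arrays in exactly the members' order, 3 of the 10 with the widest range stand in the lists of further B cell genes (Tnfrsf13c, Fcrl1 and Cd72). The 10 were Ighv14-2, an immunoglobulin heavy chain segment (range 5.80), Tnfrsf13c, the receptor for the B cell survival factor BAFF (5.42), Fcrl1 (5.03), Marco, a scavenger receptor of macrophages (4.79), and B3gnt5, a glycosyltransferase (4.45). Trav9d-3, a T cell receptor segment (4.23), Cd72, a B cell coreceptor (4.22), AI504432 (4.21), H2-Oa, which modulates class II antigen loading in B cells (4.10), and Ccr6, a chemokine receptor (4.05), followed. Marco had 28.1, 380.8 and 152.5 in YY1bKO, against 35.8, 193.0 and 801.9 in controls, unlike the macrophage list as a whole.

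The lymphocyte mean was also entered as a covariate in the genotype fit of the other 12361 genes. With genotype alone, 6 of them passed an adjusted p of 0.05 by limma: Ucp1, Fabp3, Slc27a2, Chrna2, Acsm3 and Fbxo21. With the lymphocyte mean added, 3 passed, Ucp1, Fabp3 and Slc27a2, while at an unadjusted p of 0.05 there were 1170 higher and 488 lower genes, against 1049 higher and 247 lower with genotype alone. The differences of the remaining 3 hardly moved. With and without the covariate they were 1.16 and 1.17 for Chrna2, 1.34 and 1.32 for Acsm3, and 0.95 and 0.96 for Fbxo21. Their adjusted p by limma lay between 0.0550 and 0.0584 with it, and between 0.0460 and 0.0493 without it. The log2 difference of Ucp1, the uncoupling protein of thermogenic adipocytes, was 5.26 ± 0.14 (SE, n = 3 arrays per group) with the covariate and 5.25 ± 0.14 without it. With and without it, Fabp3 gave 5.71 ± 0.28 and 5.79 ± 0.30, and Slc27a2 gave 3.59 ± 0.17 and 3.67 ± 0.22. The covariate takes 1 of the 4 residual degrees of freedom.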

How the data were processed

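Total RNA from subcutaneous fat was labelled with biotin and hybridised to Affymetrix arrays (per the labels' protocols). The authors made the deposited intensity of each probe set with RMA, per the submitters' processing notes, which name no version. RMA corrects background, makes the arrays' distributions alike and summarises probes. The values are read as linear from their size. The table held 22690 probe sets, of which 20393 had 1 gene symbol in the platform annotation and 691 had several; those with several or none were left out.

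Values were transformed as log2(intensity + 1) and fitted over 12394 genes with limma 3.58.1 in R 4.3.3 (lmFit, eBayes, 6.11 total degrees of freedom), with 2-sided p-values adjusted by Benjamini-Hochberg at 0.05. No filter on dim probe sets was used. The fit was tested on simulated data. A gene's probe set was the one with the highest mean. Centred values are log2 values minus the gene's mean over 6 arrays. Lower quartiles are those of all probe sets of an array. All 37 members may be named. Other genes came from 12 further lists, from the 10 genes of widest range in the members' order, or passed in the covariate fit. Yy1 was named as the floxed gene. Members and lists were chosen with earlier results of these data known. Alternatives were the pseudocount, normalization, filters, choice of probe set, eBayes options, array weights, the replicate block, each array left out and the covariate.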

Additional observations from a re-analysis of the deposited data

How the results depend on the processing

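No setting tried ended or made a call among the lymphocyte genes. In the 18 settings, 578 differences of single members were refitted, and 0 passed an adjusted p of 0.05 by limma (lowest adjusted p 0.308), while 48 changed sign, all but 2 of them when an array was left out. At an unadjusted p of 0.05, 1 member passed with the replicate block (Il7r, -0.97), where 10.9% of all genes did, and 1 without YY1bKO replicate 2 (Ighm, -1.11), where 8.50% did. The 2 sign changes were Ighm with the probe set of largest variance (0.16) and Gzmk with array weights (-0.00015). Leaving out each array in turn gave these lowest and highest log2 differences of genes whose sign changed: Cd79a -1.40 to 0.0407, Cd79b -2.54 to 0.81, Ms4a1 -2.87 to 0.66, Blk -1.16 to 0.15, Cd22 -1.91 to 0.31, Fcer2a -1.80 to 0.45, Pou2af1 -2.75 to 0.80, Cd37 -1.81 to 0.15, Spib -2.28 to 0.72, Cd3d -1.72 to 0.49, Cd3e -0.36 to 0.10, Cd3g -1.90 to 0.78, Cd4 -0.25 to 0.0143, Cd8b1 -1.60 to 0.48, Zap70 -0.51 to 3e-05, Cd5 -1.65 to 0.50, Cd6 -0.66 to 0.32, Cd28 -1.22 to 0.27, Cd2 -1.32 to 0.42, Il7r -1.85 to 0.19, Lat -1.16 to 0.36, Satb1 -1.40 to 0.0446, Gzmk -0.0934 to 0.20, Cd27 -1.26 to 0.57, Coro1a -1.46 to 0.00979, Ltb -2.34 to 0.61. The median over the B genes then ran from -1.81 to 0.15 and over the T genes from -1.21 to 0.24. With array weights these medians were -1.001 and -0.72, against -0.67 and -0.39 with equal weights.

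The count of all genes past an adjusted p of 0.05 was 4, and it was 9 with a pseudocount of 16, 8 above the 50th percentile of brightness, 7 with the probe set of largest variance, 12 with robust eBayes and 9 with array weights. It was 6 without the members among the genes tested, a setting chosen after seeing the data, and ran from 1 to 5 without each array in turn (1 without YY1bKO replicate 1, 2 or 3). With the replicate number as a block it was 1. The numbers were not taken to pair the arrays, since same-numbered arrays deviated together by correlations of 0.61, 0.097 and 0.031 over all genes. For these counts the cause was not tested. Below the lower quartile lay 10 members in YY1bKO replicate 1 and 9 in control replicate 1, which limits the fold changes of those members against these arrays.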

Other observations

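Over all 12394 genes, the first principal component held 50.7% of the variance between arrays and the second 30.3%. Of the 100 genes with the largest weight on the second component, 17 were members of the lymphocyte list, and that component placed the arrays at -19.8, 18.7 and 2.21 in YY1bKO and at -17.0, -21.2 and 37.1 in controls. Control replicate 2 stood at 56.8 on the first component, where 6 of the 100 genes of largest weight belonged to the 12 epithelial genes and 5 to the members. Ccl5, a chemokine of T and natural killer cells, had 329.9, 2556.0 and 1614.4 in YY1bKO, against 293.3, 1468.6 and 4222.4 in controls. Irf4, a regulator of activated lymphocytes that adipocytes also express, did not follow the members, with 238.6, 340.0 and 709.4 in YY1bKO, against 131.8, 178.3 and 268.4 in controls (log2 difference 1.06, not past an adjusted p of 0.05 by limma).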
